A study of Homo sapiens with 12 samples.

Results

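The genes described here are the solute carriers that HK-2 cells transcribed at a measurable level. They were chosen by name and level: every protein-coding gene whose symbol is SLC followed by a number and whose mean over the 12 libraries was at least 100 counts. Of 377 such symbols in the table, 185 met the threshold, out of 20286 gene identifiers in all. The other 192 fell under it, and 37 of those had 0 counts in all 12 libraries. Because the level chose the members, levels are given as a description without a test. The rule itself used no difference between groups, and these differences were tested. However, the members, classes and lists were chosen with earlier results of these data known, and SLC4A4 was to be named in any case. The tests are therefore not fully independent of the choice.

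HK-2 is an immortalised human proximal tubule epithelial cell line, wild type in every group here. Cells received 1 of 3 recombinant proteins, S100A8, S100A9 or the S100A8/S100A9 preparation, each at a labelled dose of 5 mg/mL, or the matching volume of PBS in DMEM as the control, for 48 h. Total mRNA was sequenced in 3 libraries per group, 12 in all, with 15882193 to 20748334 counts each. The labels do not say whether the libraries of a group came from separate cultures, so the p-values measure the spread between these libraries, which may be technical. The unit of the dose could not be checked.

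Solute carriers move ions, nutrients and metabolites across the plasma membrane and the membranes of organelles, as uniporters, as exchangers or coupled to a gradient of sodium or protons. In the proximal tubule of the kidney, carriers of the brush border reclaim glucose, amino acids and phosphate from the filtrate, and carriers of the basolateral side return bicarbonate to the blood. Neutrophils and monocytes make S100A8 and S100A9, which bind calcium, and their complex also binds zinc and manganese, which is why the zinc carriers are counted separately.

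Most epithelial markers examined were transcribed throughout, with EPCAM at 73.2 to 81.9 FPKM, the deposited level scaled by transcript length and library depth. The keratins KRT7, KRT8, KRT18 and KRT19 had at least 52.7 FPKM in every library, whereas the epithelial marker CDH1 reached at most 0.99 FPKM. The renal transcription factor PAX8 lay at 97.3 to 146 FPKM. The endocytic receptors LRP2 and CUBN, which define the mature proximal tubule, did not exceed 0.07 FPKM in any library, and HNF4A did not exceed 0.33 FPKM. The leukocyte marker PTPRC reached at most 0.02 FPKM, whereas CD68, a lysosomal protein that macrophages hold in quantity, lay between 56.97 and 75.08 FPKM. The label of proximal tubule cells is therefore carried by some of its markers and not by others.

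The 185 carriers together made up 1.018% to 1.083% of all FPKM in a library. Their mean levels ran from 1.03 to 607 FPKM with a median of 13.6 FPKM. Of them, 7 averaged at least 100 FPKM, 102 lay between 10 and 100 FPKM, and 76 lay between 1 and 10 FPKM. The 10 highest members held 39% of the summed level of all members, and SLC25A3 alone held 12.7%. Just inside the threshold were SLC4A8 with a mean of 100.6 counts, SLC2A10 with 104.3 counts and SLC66A3 with 105.4 counts. Just outside it were SLC37A1 with 93.8 counts, SLC35E4 with 89.6 counts and SLC16A14 with 84.1 counts.

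Members were sorted into 7 classes by their family number. The rule also catches 3 proteins that are not carriers and are named for a neighbouring or interacting carrier: SLC4A1AP, SLC2A4RG and SLC7A6OS. SLC8B1, a mitochondrial exchanger of sodium and calcium, falls under inorganic ions by its number. Class names describe families, and other members may likewise carry substrates that the name of their class does not cover.

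Mitochondrial carriers formed the largest class and the highest in summed level, with 36 of the 48 genes of family 25 among the members. Their median member averaged 14.9 FPKM. That was below the medians of the zinc, iron, copper and magnesium class (17.96 FPKM), the nucleotide sugar class (16.9 FPKM) and the amino acid class (16.3 FPKM). Shares of a class were taken over all 377 SLC genes, with those under the threshold included. All 48 genes of family 25 held 34.6% ± 0.835 of that summed level in S100A8 cells, 33.5% ± 0.273 in S100A9 cells, 34.2% ± 0.213 in S100A8/S100A9 cells and 33.8% ± 0.395 in control cells (SD, n = 3 each). SLC25A3, the phosphate carrier that feeds ATP synthesis, led all carriers at 624 ± 29.8 FPKM in S100A8 cells, 579 ± 7.94 FPKM in S100A9 cells, 617 ± 23.98 FPKM in S100A8/S100A9 cells and 609 ± 21.5 FPKM in control cells. The ADP/ATP carriers followed, with means over the 12 libraries of 223 FPKM for SLC25A5 and 152 FPKM for SLC25A6, while their muscle and heart counterpart SLC25A4 stood at 10.5 FPKM. SLC25A39, which brings glutathione into mitochondria, averaged 72.2 FPKM. SLC25A3, SLC25A5 and SLC25A6 have processed copies elsewhere in the genome, so a part of their counts may be shared with these.

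Carriers of amino acids and peptides were the class second in summed level. With genes under the threshold included, they held 20.6% ± 0.339 of the total of all 377 SLC genes in S100A8 cells, 21.1% ± 0.117 in S100A9 cells, 20.7% ± 0.144 in S100A8/S100A9 cells and 20.7% ± 0.166 in control cells (SD, n = 3 each). The sodium-coupled neutral amino acid carriers SLC38A1 and SLC38A2 averaged 181 and 160 FPKM over the 12 libraries. The CD98 heavy chain SLC3A2, which brings several light chains to the plasma membrane, averaged 99.997 FPKM, and its light chain SLC7A5, the exchanger of large neutral amino acids, averaged 57.3 FPKM. The glutamine carrier SLC1A5 averaged 75.8 FPKM and had the smallest spread of all members, with an SD within groups of 0.01 on the log2 scale. SLC7A11, the light chain that takes up cystine in exchange for glutamate, averaged 15.2 FPKM.

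Zinc, iron, copper and magnesium carriers had 26 members of 35 genes. Within them, 17 of the 24 genes of the zinc families 30 and 39 were members: 11 of 14 importers to the cytosol (ZIP, family 39) and 6 of 10 exporters from it (ZnT, family 30). SLC39A1, a ZIP of the plasma membrane, was the highest at 136 FPKM over the 12 libraries, followed by SLC39A7, which releases zinc from the endoplasmic reticulum and Golgi, at 50.9 FPKM. SLC39A14, which also takes up iron and manganese, averaged 42.9 FPKM, SLC39A6 37.7 FPKM and SLC39A8 20.4 FPKM. Among the exporters, SLC30A1 of the plasma membrane averaged 33.3 FPKM and SLC30A5 of the secretory pathway 27.2 FPKM. The 7 zinc carriers under the threshold were SLC30A2, SLC30A3, SLC30A8, SLC30A10, SLC39A2, SLC39A5 and SLC39A12. SLC48A1, a heme carrier of the endolysosomal membrane, averaged 54.6 FPKM.

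The class of nucleotide sugar, nucleoside and endomembrane carriers had 30 members. It was led by SLC35F5 at 125 FPKM over the 12 libraries, followed by the equilibrative nucleoside carrier SLC29A1 at 44.9 FPKM, SLC35A4 at 36.3 FPKM and SLC35B2, which supplies the Golgi with the sulfate donor PAPS, at 33.1 FPKM. Sugar and monocarboxylate carriers had 19 members, led by the lactate and pyruvate carrier SLC16A1 at 91.6 FPKM and the glucose carrier SLC2A1 at 89.0 FPKM. The lactate carrier SLC16A3 averaged 34.7 FPKM and the glucose carrier SLC2A3 33.03 FPKM. SLC2A3 has a near-identical paralog, with which the counting may have split its reads.

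Inorganic ion carriers had 27 members, led by the phosphate carrier SLC20A1 at 68.1 FPKM and the chloride and bicarbonate exchanger SLC4A2 at 66.1 FPKM over the 12 libraries. The sulfate carrier SLC26A2 averaged 18.1 FPKM, and SLC4A1AP, the nuclear protein kanadaptin, 23.6 FPKM. Carriers of organic ions, vitamins, lipids and choline had the fewest members, 16 of 65 genes. Their highest were SLC10A3 at 20.8 FPKM, the choline carrier SLC44A2 at 19.6 FPKM, the riboflavin carrier SLC52A2 at 18.2 FPKM and the vitamin C carrier SLC23A2 at 17.4 FPKM. Only 3 of the 23 genes of the organic ion family 22 were members.

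**Figure D1:**
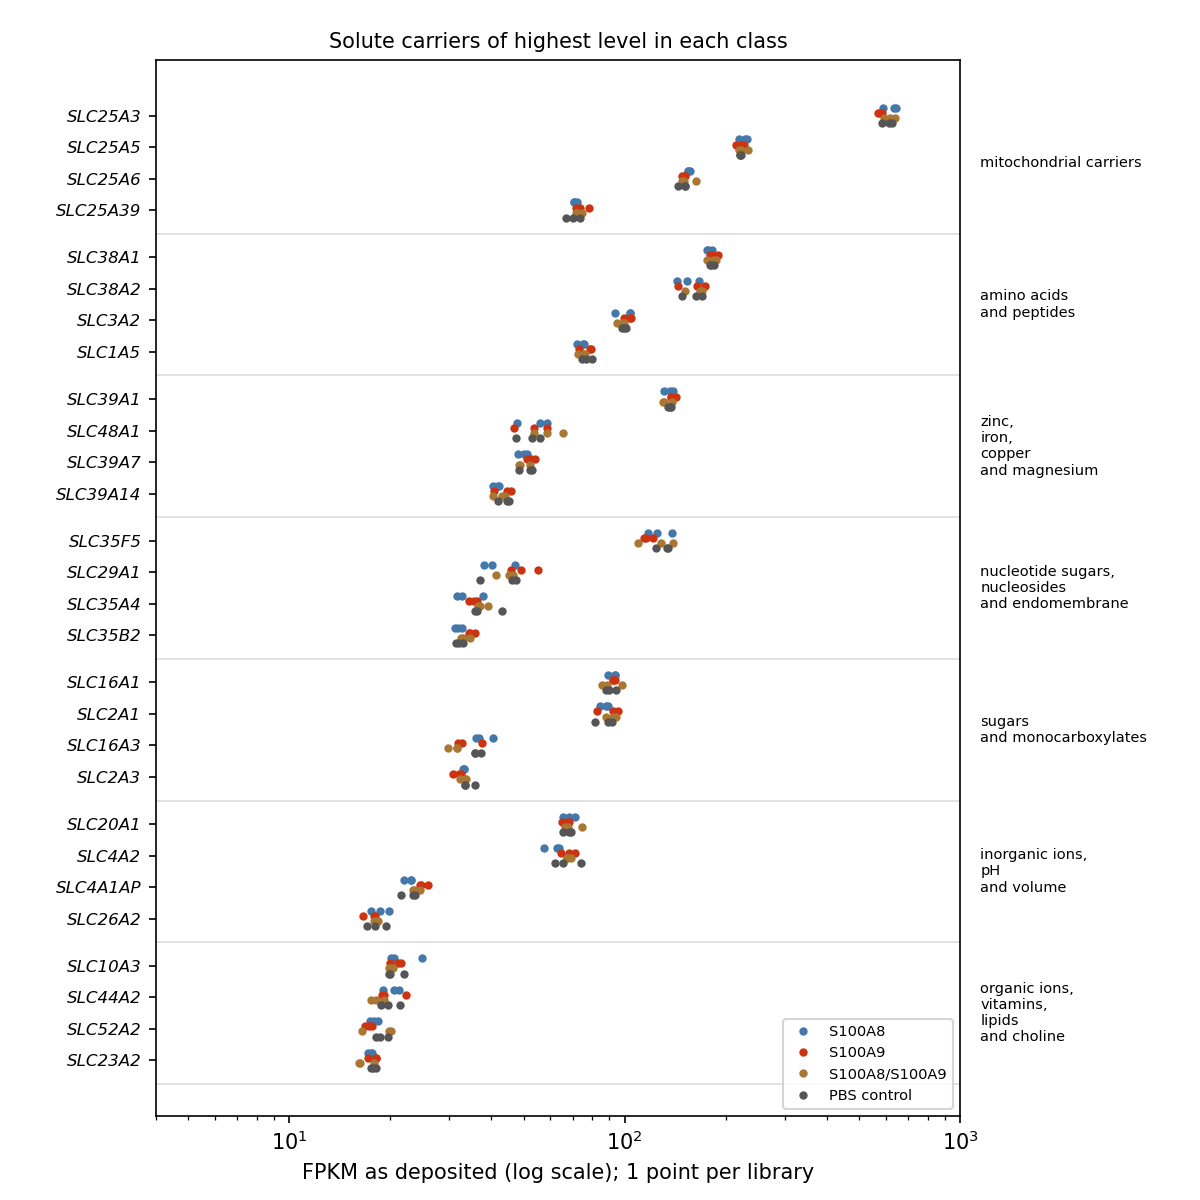
FPKM as deposited on a log axis for the 4 members of highest mean level in each of 7 classes, 1 point per library, with colours for the 4 groups. SLC25A3 lies at 570.4 to 645 FPKM in all 12 libraries, apart from every other carrier, and the colours overlap for most carriers.

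The proximal tubule's own transporters were mostly low or at 0. Of a list of 50 carriers known from the brush border and basolateral membrane of this segment, 11 were members, 29 had a mean between 0 and 100 counts, and 10 had 0 counts in every library. The 10 at 0 included the organic anion carriers SLC22A6 and SLC22A8, the urate carrier SLC22A12, the sulfate carrier SLC13A1 and the lactate carriers SLC5A8 and SLC5A12. A count of 0 in the smallest library allows up to 0.189 CPM (3 counts; CPM are counts relative to library size), which covers counting error only. The sodium and glucose carrier SLC5A2 averaged 10.8 counts and the sodium and phosphate carrier SLC34A1 2.25 counts.

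The 11 members on that list were led by SLC3A2 and SLC2A1, which many cell types also transcribe. The list also held the potassium and chloride carrier SLC12A7 at 7.25 FPKM, the anion exchanger SLC26A6 at 6.86 FPKM, the phosphate carrier SLC20A2 at 5.38 FPKM and the sodium and bicarbonate carrier SLC4A4 at 4.95 FPKM over the 12 libraries. SLC43A2, SLC22A5, SLC7A7 and the sodium and proton exchanger SLC9A3 were also among them, and SLC9A3 was the lowest of the 11 at 1.61 FPKM.

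**Figure D2:**
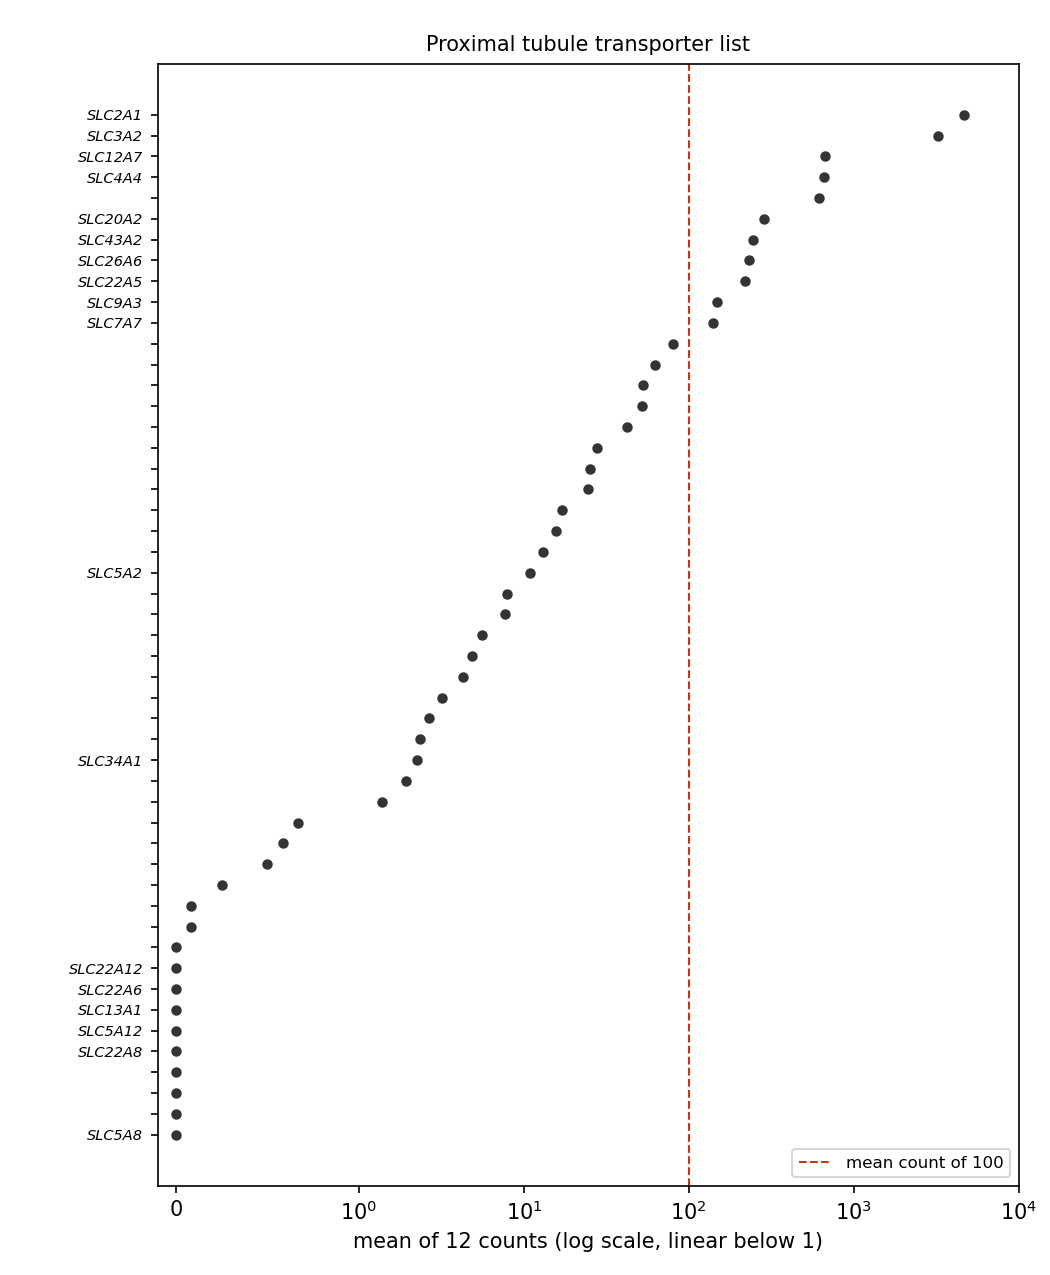
Mean of the 12 counts (log axis, linear below 1) for each of the 50 listed proximal tubule carriers, with the threshold of 100 counts as a dashed line; the carriers named in the text are labelled. Right of the line stand 11 carriers, and 10 stand at 0.

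Levels were close between libraries. The SD within groups was 0.09 on the log2 scale for the median member, and 162 of the 185 members spanned less than 0.5 on the log2 scale over all 12 libraries. SLC5A3, the carrier of the osmolyte myo-inositol, was the 1 member that spanned more than 1 on that scale.

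All 185 members entered the tests between groups, with 13512 genes in the fit. In no comparison with the control did a member pass an adjusted p of 0.05 by the quasi-likelihood test of edgeR, Benjamini-Hochberg adjusted over every gene in the fit. For S100A9 against control the count was 0 of 185, where 0.148% of all genes passed; 11 members (5.95%) had an unadjusted p under 0.05, 5 higher and 6 lower, where 5.85% of all genes had one. For S100A8 against control it was 0 of 185, where 0.0074% of all genes passed; 8 members (4.32%) had an unadjusted p under 0.05, 1 higher and 7 lower, where 3.53% of all genes had one. For S100A8/S100A9 against control it was 0 of 185, where 0% of all genes passed; 9 members (4.86%) had an unadjusted p under 0.05, 3 higher and 6 lower, where 5.6% of all genes had one. DESeq2 also gave 0 members in each of these 3 comparisons. In bulk RNA, fewer cells with a transcript and less of it per cell cannot be told apart, and the 3 comparisons share their control libraries.

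The median log2 difference of the members was 0.001 for S100A9, -0.006 for S100A8 and -0.004 for S100A8/S100A9 against control, and over all genes tested it was at most 0.001 in size in each. Within 0.1 of no difference on the log2 scale lay 78.4% of members for S100A9 (69.7% of all genes), 81.6% for S100A8 (73.1% of all genes) and 78.4% for S100A8/S100A9 (70.1% of all genes). Members were chosen for a mean of at least 100 counts, while all genes tested included genes of lower counts. These shares therefore cannot show that carriers were steadier than other genes. By class, the medians ran from -0.03 to 0.04 for S100A9, from -0.07 to 0.01 for S100A8 and from -0.04 to 0.06 for S100A8/S100A9. Carriers of sugars and monocarboxylates had the highest class median in each of the 3, with 13 of 19 above 0 for S100A9, 10 of 19 for S100A8 and 15 of 19 for S100A8/S100A9. No member of that class passed the test. For S100A9, 11 members had all 3 treated libraries above all 3 control libraries, where 6.25% of all genes did, and 13 had them below, where 5.77% did.

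**Figure D3:**
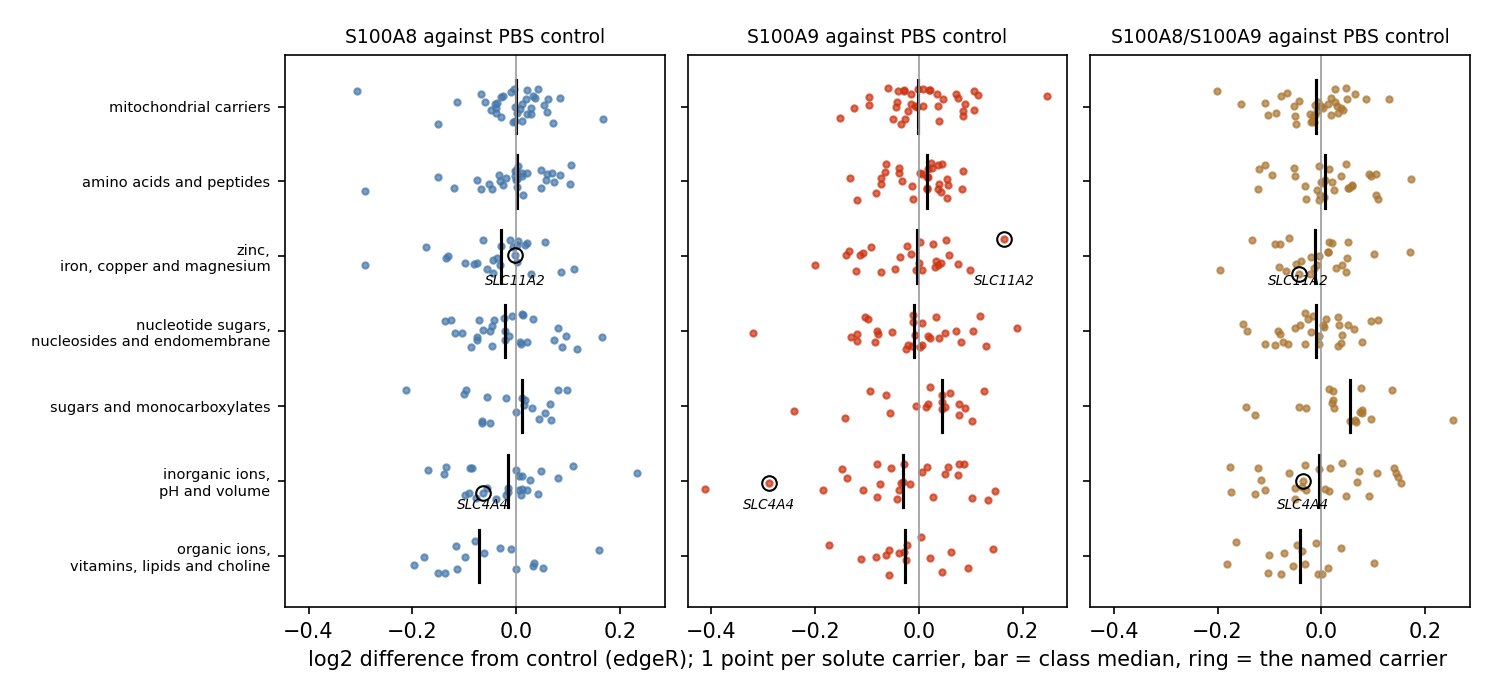
Log2 difference from control of each of the 185 solute carriers by class, for S100A8, S100A9 and S100A8/S100A9, 1 point per carrier, with a bar at the class median and rings on SLC11A2 and SLC4A4. Most points lie within 0.1 of 0, and with S100A9 SLC11A2 stands at 0.17 and SLC4A4 at -0.29.

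The zinc carriers showed no difference past the test. Of the 17 in families 30 and 39, 0 passed by edgeR or by DESeq2 in any of the 3 comparisons with control, and with an unadjusted p under 0.05 there were 0 for S100A9, 1 lower for S100A8 and 1 lower for S100A8/S100A9. Their median log2 difference was -0.01 for S100A9, -0.03 for S100A8 and -0.01 for S100A8/S100A9. For all 17 the 95% interval of the log2 difference lay between -0.5 and 0.5 in each comparison. Of all 185 members, this held for 180 with S100A9, 179 with S100A8 and 183 with S100A8/S100A9, so it is not particular to zinc carriers.

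SLC39A14 had 40.45, 42.04 and 41.82 FPKM in S100A8 cells, 44.6, 40.7 and 45.9 FPKM in S100A9 cells, 43.1, 40.4 and 43.9 FPKM in S100A8/S100A9 cells and 45.2, 41.9 and 44.7 FPKM in control cells. SLC30A1 had 37.99, 29.95 and 32.28 FPKM in S100A8 cells, 33.7, 32.5 and 32.3 FPKM in S100A9 cells, 30.6, 33 and 34.61 FPKM in S100A8/S100A9 cells and 36.3, 34.02 and 32.05 FPKM in control cells. The groups overlapped for both genes. For SLC30A1, whose transcription is known to follow zinc in the cell, the log2 difference from control was -0.05 with S100A9 (95% interval -0.22 to 0.12), -0.03 with S100A8 (-0.20 to 0.14) and -0.05 with S100A8/S100A9 (-0.22 to 0.12). For SLC39A8, a carrier of zinc, manganese and cadmium, it was 0.04 with S100A9 (-0.08 to 0.16), 0.02 with S100A8 (-0.10 to 0.14) and 0.03 with S100A8/S100A9 (-0.09 to 0.15).

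Of the amino acid carriers, 0 of 31 passed by edgeR or DESeq2 in the 3 comparisons with control, and with an unadjusted p under 0.05 there were 0 for S100A9, 2 lower for S100A8 and 1 higher for S100A8/S100A9. SLC7A5 had 257, 258 and 258 CPM after TMM normalisation in S100A8 cells, 246, 259 and 255 CPM in S100A9 cells, 279, 262 and 251 CPM in S100A8/S100A9 cells and 247, 243 and 246 CPM in control cells. With S100A8/S100A9 and with S100A8 all libraries lay above the control libraries, by 0.11 (95% interval 0.02 to 0.19) and 0.07 (-0.01 to 0.15) on the log2 scale, and neither passed after adjustment. Its heavy chain SLC3A2 differed from control by 0.04 with S100A9 (-0.04 to 0.13), 0.01 with S100A8 (-0.08 to 0.10) and -0.01 with S100A8/S100A9 (-0.10 to 0.08) on the log2 scale. SLC7A11, a gene of the oxidative stress response, differed by -0.04 with S100A9 (-0.18 to 0.10), 0.07 with S100A8 (-0.07 to 0.21) and -0.03 with S100A8/S100A9 (-0.17 to 0.11).

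Comparing the proteins with each other, 1 member passed. For S100A8/S100A9 against S100A9, SLC11A2 was lower by edgeR's quasi-likelihood test, Benjamini-Hochberg adjusted, 1 of 185 members where 0.222% of all genes were called lower and 0.252% in either direction; 16 members had an unadjusted p under 0.05, 8 higher and 8 lower, a share of 8.65% where 7.15% of all genes had one. For S100A9 against S100A8, 0 members passed by edgeR or DESeq2, where 0.185% of all genes passed, while with replicate number as a block edgeR called SLC29A1 (log2 difference 0.26, adjusted p = 0.00183). In that comparison 20 members had an unadjusted p under 0.05, 13 higher and 7 lower, a share of 10.8% where 7% of all genes had one. For S100A8/S100A9 against S100A8, 0 members passed by edgeR or DESeq2, where 0% of all genes passed; 13 members had an unadjusted p under 0.05, 9 higher and 4 lower, a share of 7.03% where 4.43% of all genes had one. In the test of any difference over the 4 groups, 0 members passed by edgeR, where 0.222% of all genes did and 5.91% had an unadjusted p under 0.05, against 8.11% (15) of the members, and DESeq2's likelihood ratio test called SLC11A2. These comparisons share the libraries of S100A9 and of S100A8.

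SLC11A2, also known as DMT1, carries ferrous iron with protons across the apical membrane and out of endosomes. It had 108, 108 and 109 CPM in S100A8 cells, 116, 127 and 120 CPM in S100A9 cells, 106, 104 and 105 CPM in S100A8/S100A9 cells and 106, 110 and 108 CPM in control cells. The 3 S100A9 libraries were higher than the other 9, while the remaining groups lay within a few CPM of each other. S100A8/S100A9 against S100A9 gave a log2 difference of -0.21 (SE 0.04, 95% interval -0.30 to -0.12, adjusted p = 0.0226 by edgeR's quasi-likelihood test, Benjamini-Hochberg adjusted). S100A9 against control gave 0.17 (SE 0.04, adjusted p = 0.188) and S100A9 against S100A8 gave 0.17 (SE 0.04, adjusted p = 0.159) by the same test, so neither was called. The call for S100A8/S100A9 against S100A9 was also made with replicate number as a block, with DESeq2's size factors, by DESeq2's Wald test, with no filter on low counts and without S100A9 replicate 1. It was lost with only the 6 libraries compared, without the 4 libraries numbered 2 (adjusted p = 0.452 by edgeR), without S100A9 replicate 2 (log2 difference -0.17, adjusted p = 0.287 by edgeR), without S100A9 replicate 3 (adjusted p = 0.157), and without S100A8/S100A9 replicate 1, 2 or 3 (adjusted p = 0.088, 0.117 and 0.122 by edgeR).

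On the FPKM scale the S100A9 libraries stood less apart: SLC11A2 had 32.45, 35.12 and 32.7 FPKM in S100A9 cells and 30.05, 29.84 and 32.43 FPKM in S100A8 cells. The transcript length implied by count and FPKM was 3367 bases in the third S100A8 library, against 3532 to 3706 bases in the other 11. In limma's test on log2(FPKM + 1) the log2 difference of S100A8/S100A9 against S100A9 was -0.19 with an adjusted p of 0.377, and on log2(FPKM + 0.1) it was -0.19 with an adjusted p of 0.404.

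SLC4A4, the basolateral sodium and bicarbonate cotransporter NBCe1 of the proximal tubule, had the opposite order. It had 39.3, 36.1 and 38.5 CPM in S100A8 cells, 31.8, 32.7 and 32.9 CPM in S100A9 cells, 41.8, 37.6 and 36.5 CPM in S100A8/S100A9 cells and 42.8, 36.4 and 39.8 CPM in control cells. Again the 3 S100A9 libraries stood apart from the other 9, here below them, while the other groups overlapped. S100A9 against control gave a log2 difference of -0.29 (SE 0.07, 95% interval -0.43 to -0.15, adjusted p = 0.113 by edgeR's quasi-likelihood test, Benjamini-Hochberg adjusted), which was not called. With replicate number as a block it was called (log2 difference -0.28, adjusted p = 0.0286 by edgeR). That was the only 1 of 12 alternatives to call it. Over the 12 the log2 difference ran from -0.35 to -0.23, and the adjusted p by edgeR, DESeq2 or limma reached 0.871. S100A8/S100A9 against S100A9 gave 0.25 (SE 0.07, adjusted p = 0.228) and S100A9 against S100A8 gave -0.23 (SE 0.07, adjusted p = 0.359) by edgeR without the block. S100A8 against control gave -0.06 (95% interval -0.20 to 0.08) and S100A8/S100A9 against control -0.04 (-0.17 to 0.10).

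**Figure D4:**
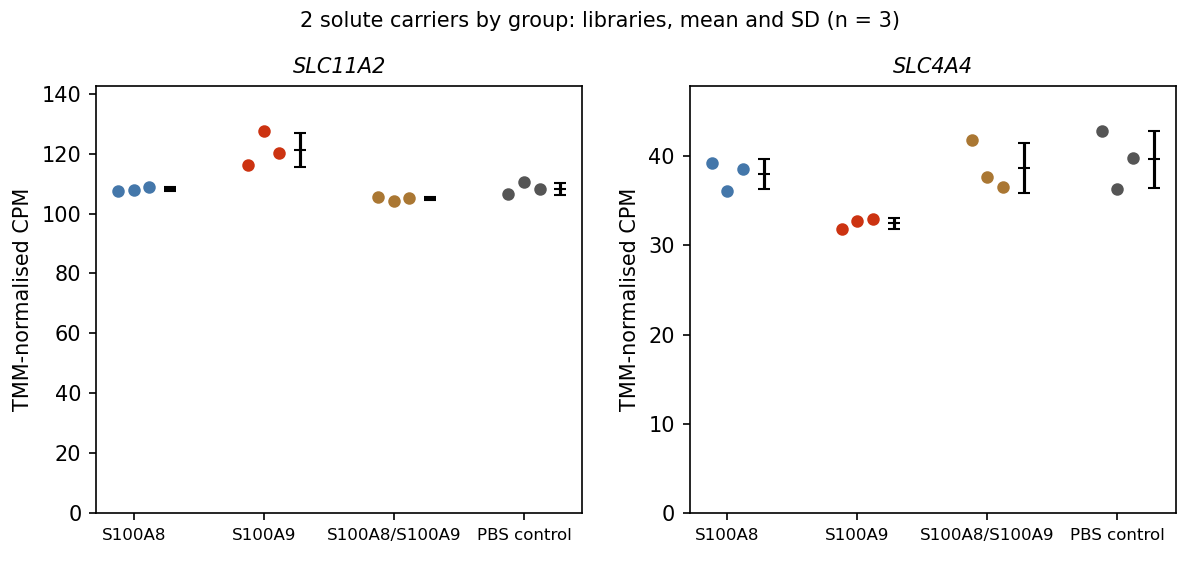
TMM-normalised CPM of SLC11A2 and SLC4A4 by group, 1 point per library, with the mean and SD of the 3 libraries as a bar beside them. S100A9 libraries lie at 116 to 127 CPM for SLC11A2, above all others, and at 31.8 to 32.9 CPM for SLC4A4, below all others.

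Because SLC11A2 and SLC4A4 had the smallest p of all members in the test over the 4 groups, the DNA just before some of their annotated starts is shown for its motifs. SLC11A2 lies on chromosome 12 (50979401 to 51028566, minus strand) and SLC4A4 on chromosome 4 (71062667 to 71572087, plus strand), in GRCh38 by GENCODE 29. The sequences come from RefSeq, GRCh38.p14, and hold the part of the 250 bases before an annotated start that no GENCODE exon of the gene covers, 5′ to 3′ on the gene's strand. Capitals mark the GC box GGGCGG.
SLC11A2, chr12:51026417-51026634, minus strand: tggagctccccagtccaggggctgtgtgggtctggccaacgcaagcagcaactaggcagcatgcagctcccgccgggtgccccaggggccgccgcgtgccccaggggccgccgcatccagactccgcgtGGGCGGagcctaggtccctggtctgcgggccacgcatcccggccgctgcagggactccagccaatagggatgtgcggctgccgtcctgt
SLC4A4, chr4:71186515-71186756, plus strand: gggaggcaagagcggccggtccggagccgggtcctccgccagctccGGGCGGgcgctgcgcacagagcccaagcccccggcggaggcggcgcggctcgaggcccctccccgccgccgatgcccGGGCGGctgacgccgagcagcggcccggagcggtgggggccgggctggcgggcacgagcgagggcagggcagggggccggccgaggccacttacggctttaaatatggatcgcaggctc
SLC4A4, chr4:71338770-71339019, plus strand: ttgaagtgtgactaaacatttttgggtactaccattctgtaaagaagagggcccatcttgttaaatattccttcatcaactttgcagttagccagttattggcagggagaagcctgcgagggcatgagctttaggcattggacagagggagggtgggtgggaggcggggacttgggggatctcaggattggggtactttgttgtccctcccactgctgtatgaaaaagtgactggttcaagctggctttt
Both strands were searched for GGGCGG, for ACGTG (the core of the hypoxia response element) and for TGANTCA (the AP-1 site), where N is any base. The SLC11A2 window held GGGCGG once, at base 130, and the first SLC4A4 window held it at bases 47 and 124. The second SLC4A4 window held none of the 3 motifs, and the other windows printed held no ACGTG or TGANTCA. Each window printed lies within the span of its gene given above, before a start inside the gene. The windows that lie before these spans, chr12:51028887-51029136 for SLC11A2 and chr4:71062410-71062659 for SLC4A4, are not printed and held none of the 3 motifs. Of the windows not printed, 1 of SLC11A2 and 1 of SLC4A4 held TGANTCA. The windows chr12:51028243-51028492 of SLC11A2 and chr4:71187009-71187258 of SLC4A4 were not searched, because exons of the gene cover 169 and 250 of their bases. The shares below count all 250 bases of each window, while windows of these 2 genes were searched only outside exons. The GC box occurred in 42.6% of all 35116 RefSeq windows of 250 bases and in 64.8% of the 230 windows of the 151 members that had one. ACGTG occurred in 18.5% of all windows and in 23.9% of the members' windows, and TGANTCA in 6.57% of all windows and in 5.22% of the members' windows. A match of letters is a description and shows no binding.

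By class, the share of members with an unadjusted p under 0.05 for S100A9 against control ran from 0% to 18.5%, where 5.85% of all genes had one. The highest share was 5 of the 27 members of the inorganic ion class, among them SLC4A1AP, which is not a carrier. In S100A8/S100A9 against S100A9 that share ran from 0% to 22.2%, where 7.15% of all genes had one. The highest share was 8 of the 36 mitochondrial carriers, 3 higher and 5 lower. Whether the classes differ was not tested, and these 2 were named after their values were seen. For S100A9 against control the next members by p were SLC37A2, a carrier of sugar phosphates in the endoplasmic reticulum (log2 difference -0.32), the potassium and chloride carrier SLC12A4 (-0.18), SLC4A1AP (0.15) and SLC35B2 (0.13), with adjusted p from 0.488 to 0.674 by edgeR. For S100A8 against control they were the glycine carrier SLC6A9 (-0.29), the UDP-galactose carrier SLC35A2 (-0.12) and the zinc carrier SLC39A10 (-0.13) below, and SLC35A3 (0.12), SLC4A3 (0.23) and SLC25A15 (0.17) above, each with an adjusted p of 1. For S100A8/S100A9 against control they were SLC22A15 (-0.18), SLC12A4 (-0.18) and SLC16A3 (-0.15) below and SLC7A5 (0.11), SLC25A23 (0.13) and SLC16A4 (0.25) above, with adjusted p from 0.829 to 0.852. None of these was called.

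Between the proteins, SLC25A37, the iron carrier mitoferrin-1, had the second smallest p among the lower members for S100A8/S100A9 against S100A9. It had 34.98, 38.84 and 34.61 CPM in S100A8/S100A9 cells and 43.3, 39.8 and 43.2 CPM in S100A9 cells, a log2 difference of -0.22 that was not called (adjusted p = 0.435 by edgeR). All 3 S100A8/S100A9 libraries were lower than all 3 S100A9 libraries. In the same comparison SLC25A16 differed by -0.15, SLC25A23, a calcium-regulated carrier of ATP and phosphate, by 0.15, and the zinc carrier SLC30A9 by 0.16. For S100A9 against S100A8, SLC4A1AP differed by 0.16, SLC37A2 by -0.28 and SLC12A7 by -0.16. For S100A8/S100A9 against S100A8, SLC6A9 differed by 0.29, SLC25A23 by 0.14, SLC2A6 by 0.19, SLC35A3 by -0.15, SLC35D1 by -0.31 and SLC16A3 by -0.15, with an adjusted p of 0.98 each by edgeR.

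More members differed by replicate number than by treatment. In the fit with group and replicate number, 8 of the 185 members, 4.32%, passed for replicate number by edgeR's quasi-likelihood test, Benjamini-Hochberg adjusted, where 2.59% of all genes passed. In all 8 the libraries numbered 2 were lowest on average: SLC48A1, SLC38A2, SLC7A6, SLC29A1, SLC4A11, SLC5A3, SLC35F6 and SLC2A1. Number 2 was below number 1 on average in 107 of the 185 members (57.8%), where it was in 49.8% of all genes. What the numbers stand for is not given in the labels.

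SLC5A3 moved furthest. In the libraries numbered 2 it had 125 CPM with S100A8, 139 CPM with S100A9, 168 CPM with S100A8/S100A9 and 134 CPM in control. In those numbered 1 it had 259 CPM with S100A8, 324 CPM with S100A9, 275 CPM with S100A8/S100A9 and 265 CPM in control. Those numbered 3 had 169 CPM with S100A8, 238 CPM with S100A9, 260 CPM with S100A8/S100A9 and 240 CPM in control, so every library numbered 2 was below all 8 others. The log2 difference of number 2 against number 1 was -0.99. The joint test of all replicate numbers gave an adjusted p of 0.0151 by edgeR, and number 2 against number 1 alone was not tested. MRPS6, a mitochondrial ribosomal protein gene that shares exon bases with SLC5A3 on the same strand, was also lower in the libraries numbered 2. Its log2 difference of number 2 against number 1 was -0.57, and its adjusted p in the same joint test was 3.62e-07 by edgeR. The shared bases were 273 of the 11576 exon bases of SLC5A3 (2.36%), and their part in the SLC5A3 counts was not tested.

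SLC38A2, which cells raise when amino acids run short, had 661 to 708 CPM in the 4 libraries numbered 2, 774 to 811 CPM in those numbered 1 and 714 to 784 CPM in those numbered 3. SLC48A1 had 121 to 136 CPM in number 2, 142 to 167 CPM in number 1 and 136 to 150 CPM in number 3. In both, every library numbered 2 was below all 8 others. SLC7A6, a light chain that exchanges cationic and neutral amino acids, had 122 to 133 CPM in number 2 and 152 to 165 CPM in number 1, and SLC29A1 had 72.1 to 84.7 CPM in number 2 and 85.3 to 104 CPM in number 1. SLC7A6 shares 44.4% of its exon bases with SLC7A6OS on the other strand, and whether the counting used strand is not given in the sources used here, so reads of this pair may not be separate. SLC48A1, SLC38A2, SLC7A6 and SLC29A1 passed in 12 of 12 fits that left out 1 library each, while SLC4A11 passed in 10, SLC5A3 in 8, SLC35F6 in 8 and SLC2A1 in 4. DESeq2's likelihood ratio test for replicate number called 6 of the 8 and did not call SLC4A11 (adjusted p = 0.0534) or SLC2A1 (adjusted p = 0.062). SLC5A3 was lost without replicate 2 of S100A8, S100A9 or control and without S100A9 replicate 1 (adjusted p 0.0564 to 0.0949 by edgeR), and SLC4A11 without S100A9 replicate 1 or 2 (adjusted p = 0.121 and 0.0877). SLC35F6 was lost without replicate 1 or 2 of control, S100A8 replicate 1 or S100A8/S100A9 replicate 2 (adjusted p 0.0555 to 0.229). SLC2A1 was lost without any 1 of the control libraries, any 1 of the S100A9 libraries, S100A8 replicate 3 or S100A8/S100A9 replicate 2 (adjusted p 0.0591 to 0.354).

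**Figure D5:**
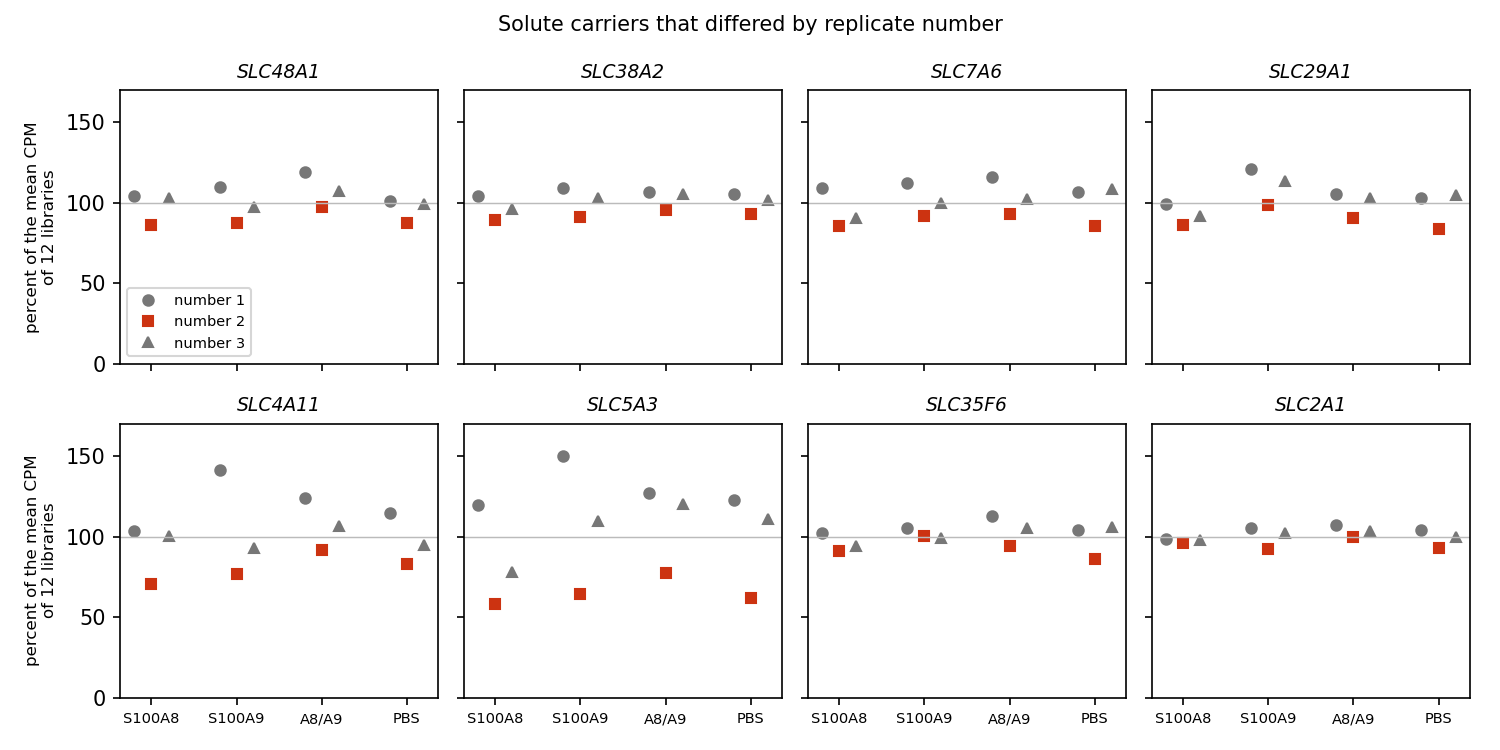
CPM of the 8 solute carriers called for replicate number, as a percent of their own mean over 12 libraries, by group (A8/A9 stands for S100A8/S100A9) and with a symbol for each replicate number. In SLC5A3 the libraries numbered 2 stand lowest in every group.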

How the data were processed

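The deposited table gives, per gene and library, expected counts, which the authors estimated from the reads, and FPKM values, which the authors scaled by length and library depth, per the file headers. The submitters' processing notes name GRCm38 and mm10, which are mouse builds, while the gene identifiers are human; which aligner, counter, annotation and strand setting were used is not given in the sources used here. Of the identifiers, 20228 were named by a gene names table, 50 by GENCODE 29 and 8 not at all, and 12.0% of the count entries were not whole.

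Rounded counts entered edgeR 4.0.16 (R 4.3.3; filterByExpr with a minimum count of 10, TMM factors of 0.994 to 1.01, robust quasi-likelihood fit of all 12 libraries with 1 mean per group, 8 residual degrees of freedom, Benjamini-Hochberg adjustment over 13512 genes, threshold 0.05). The biological coefficient of variation was 4.65%. Intervals are the estimate with 95% t limits. Alternatives used limma 3.58.1 on log2(FPKM + 1) and log2(FPKM + 0.1), DESeq2 1.42.0, other scalings and filters, single libraries left out, replicate number as a block, and the 6 compared libraries alone. Leaving out the 4 libraries numbered 2 was added after seeing the data. The fit was tested on simulated data.

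The members, classes and lists were chosen with earlier results of these data known. Named are the 4 highest members of each class, the 10 highest in all, members past the threshold in any test (the 6 of smallest p with full values), the 3 members of smallest p per direction and comparison, the highest of the zinc and proximal tubule lists, 3 genes on each side of the count threshold, and SLC4A4, SLC7A11, SLC39A14, SLC39A8, SLC30A1, SLC7A5 and SLC3A2. Of the genes this rule names, 2 are not reported here. SLC25A4 and the genes listed at 0 were named after their values were seen. Of the members, 58 share exon bases with another protein-coding gene in GENCODE 29, 13 of them over 20% of their exon bases. Of the 150 members with a mean of at least 5 FPKM, 72 had an implied length that varied by more than 1.1 times between libraries, so FPKM and CPM can rank libraries differently. Intervals and floors cover counting error or the spread between libraries only.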

Additional observations from a re-analysis of the deposited data

How the results depend on the processing

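The labels do not say that replicate numbers pair the libraries, and not every same-numbered pair deviated together, so the block stayed an alternative. Over all genes the correlations of same-numbered libraries ran from -0.07 to 0.15, with 2 of 18 pairs over 0.1. Over the 185 members they ran from -0.09 to 0.46 with a median of 0.29 and 13 of 18 pairs over 0.1, against a median of -0.09 for different numbers. Each library's correlations with libraries of the other groups were also averaged by number. In both gene sets, this mean was highest for the library's own number in 8 of the 12 libraries, a hint from the data and not from the design. With replicate number as a block, S100A9 against control called 1 member (SLC4A4, log2 difference -0.28, adjusted p = 0.0286 by edgeR), S100A9 against S100A8 called 1 (SLC29A1, 0.26, adjusted p = 0.00183 by edgeR) and the test over 4 groups called 2 (SLC29A1 and SLC11A2). DESeq2's likelihood ratio test over 4 groups called 1. For S100A8/S100A9 against S100A9 the count of 1 became 0 with only the 6 libraries compared, 0 to 1 with 1 library left out and 0 without the 4 libraries numbered 2. Without those, S100A9 against S100A8 called 1 (SLC29A1). For replicate number the count of 8 ran from 5 to 14 with 1 library left out: 5 without control replicate 2, S100A9 replicate 1 or S100A9 replicate 2, and 14 without S100A8/S100A9 replicate 1. The cause was not tested.

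Of 708 values of single members under alternatives, 668 kept their direction and side of the threshold, 31 changed sign in differences that were not called, 8 lost the call of SLC11A2 in S100A8/S100A9 against S100A9 (5 without 1 library, 1 without the libraries numbered 2 and both limma fits) and 1 gained a call (SLC4A4, above). Limma on FPKM gave -0.0068 and -0.0069 for SLC39A14 with S100A9 against control and 0.045 and 0.046 for SLC11A2 with S100A8 against control. Without the libraries numbered 2, S100A8 against control gave -0.032 for SLC39A8, 0.040 for SLC30A1, -0.0089 for SLC3A2 and 0.014 for SLC11A2, and S100A8/S100A9 against control gave 0.00047 for SLC7A11. With 1 library left out, S100A9 against control ran from -0.096 to 0.019 for SLC7A11, -0.031 to 0.050 for SLC39A14 and -0.090 to 0.0026 for SLC30A1. S100A8 against control ran from -0.023 to 0.049 for SLC39A8, -0.13 to 0.043 for SLC30A1, -0.015 to 0.062 for SLC3A2 and -0.013 to 0.012 for SLC11A2. S100A8/S100A9 against control ran from -0.099 to 0.026 for SLC4A4, -0.087 to 0.030 for SLC7A11, -0.043 to 0.089 for SLC39A8, -0.092 to 0.0019 for SLC30A1 and -0.020 to 0.0068 for SLC3A2. S100A8/S100A9 against S100A8 ran from -0.036 to 0.069 for SLC4A4. The median log2 difference of all members stayed between -0.006 and 0.012 with a minimum of 20 or 500 counts or with DESeq2 size factors.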
